A study of Mus musculus with 6 samples.

Results

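Serine/arginine-rich (SR) proteins and heterogeneous nuclear ribonucleoproteins (hnRNPs) are RNA-binding proteins that choose splice sites. The members studied here were the 40 protein-coding genes, of 21887 on 21 chromosomes of the RefSeq gene table (assembly GRCm38.p6, the same as mm10), whose symbol starts with Srsf (11 genes) or Hnrnp (21 genes), plus 8 genes named singly: Tra2a, Tra2b, Ptbp1, U2af1, U2af2, Sf3b1, Sfpq and Cbx3. The cells were mouse embryonic fibroblasts, heterozygous for Atr (Atr+/-), made immortal through passaging, with expression of Bcl-xL, an inhibitor of cell death. Both conditions shared this genotype, so no cells with 2 intact copies of Atr were analysed here, and the sources used here do not give what drives Bcl-xL. Vehicle cells had DMSO for 18 h (called DMSO), and treated cells had 1 µM of the ATR inhibitor ATR-45 with 0.2 µM aphidicolin, an inhibitor of replicative DNA polymerases, for 18 h. In BrITL, free DNA ends are labelled with biotin in permeabilised cells, pulled down and sequenced. There were 6 samples, with 2 pull-downs and 1 input per condition, and the deposited data are 1 pooled peak list per condition.

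SR proteins mostly bind exonic enhancers and recruit the spliceosome, and hnRNPs often bind introns or silencers and oppose them. U2AF and SF3B1 recognise the 3′ splice site and the branch point. These proteins coat nascent RNA as it is made, and most of their genes are highly transcribed in dividing cells. The genes were asked where, and how strongly, DNA ends gathered along them in each list.

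A gene was counted when the summit of a peak, the base of its highest enrichment, lay in the gene or within 1 kb of either end. The DMSO list had 6444 peaks and the treated list 491. Their lowest −log10 q values were 18.5 and 3.38, so the lists were cut differently and no fold of one list was compared with a fold of the other. As the samples were pooled, no value had a replicate error, and the differences described below were not tested. In bulk material, more cells with an end at a site and more ends per cell cannot be told apart.

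DMSO summits lay at 35 of the 40 members (87.5%), against 23.8% of all protein-coding genes. By name, 9 of 11 Srsf genes (81.8%) and 19 of 21 Hnrnp genes (90.5%) had one. Treated summits lay at 5 members (12.5%), against 1.16% of protein-coding genes, and these were Hnrnpf, Hnrnpll, Hnrnpm, Hnrnpul2 and Ptbp1. No Srsf gene had a treated summit (0 of 11). The DMSO peak of 4 members met a treated peak, against 0.745% of protein-coding genes.

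The share of genes with a summit was higher among genes with CG-rich promoters, and near the same in genes of the members' length. Promoters here are the 300 bases from 250 before to 50 after a transcript start listed by RefSeq. The median number of CG dinucleotides was 28 in 37 member promoters and 13 in 21263 promoters of protein-coding genes. The 2 sides were not chosen alike. For each member with a DMSO summit, the promoter of the listed start nearest its strongest summit was used, and 8 members had more than 1 start. The 21263 are all listed promoters, whether or not a summit was near. Among genes with at least 20 CG in a promoter, a limit set after these shares were seen, 29 of 33 members had a DMSO summit, against 45.0% of such genes. For treated summits this was 3 of 33, against 2.22%. Hnrnpll and Hnrnpul2, which had a treated summit, have no listed promoter and could not be counted here. The members were 1.17 to 42.3 kb long (median 12.9 kb, against 17.2 kb for all), and 23.6% of protein-coding genes within that range of length had a DMSO summit. The part of base composition in the members' share was not tested, and RNA levels were not analysed here.

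**Figure D1:**
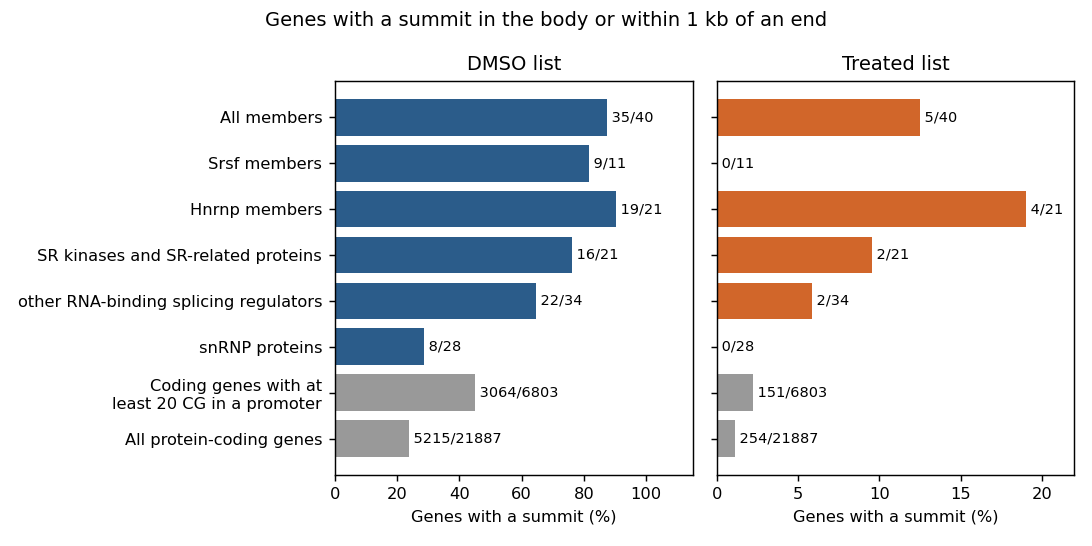
Share of genes (x axis, %) with a summit in the body or within 1 kb of an end, in the DMSO list (left) and the treated list (right, own axis). Bars give the members, the Srsf and Hnrnp genes among them, 3 lists of other splicing genes and, in grey, all protein-coding genes and those with at least 20 CG in a promoter; the label of a bar is genes with a summit over genes counted. The members' bar in the DMSO panel stands at 35/40, and the grey bar of all genes at 5215/21887. The bar of SR kinases and SR-related proteins also counts Ddx5, Ddx17 and Sf1.

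The values below are the authors' fold enrichment of pull-down over input at the summit, a ratio. Each fold was also turned back into the number of pull-down fragments over the summit with the peak caller's own formulas, and the 95% interval is the exact Poisson interval of that number on the fold scale. It covers counting error of the pull-down alone, with the input coverage held fixed. PCR copies are not independent molecules, and the 2 pull-downs are pooled. The members' 35 genes held 36 distinct DMSO peaks, with 37 to 103 fragments at the summit and folds from 9.29 to 25.3 (median 14.8, against 10.99 for the whole list). The interval lay above the list's median for 20 of the 36 peaks and included it for the other 16. These 2 counts were not made over the whole list, so they do not set the members apart from other DMSO peaks. Of the 36, 19 (52.8%) were above the list's 80th percentile of 14.1, against 19.9% of all DMSO peaks.

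The bases before the start are shown for 4 members, because their summits were closest to a listed start among the members of the 8 highest DMSO folds. They are the 250 bases before the start in RefSeq on GRCm38.p6, 5′ to 3′ along the gene, and capitals mark matches, on either strand, to CCAAT (the NF-Y box), GGGCGG (the GC box) and TGAGTCA (an AP-1 site). They span chr6:117906532-117906781 (plus strand, the second start of Hnrnpf), chr5:100039223-100039472 (minus strand, Hnrnpdl), chr6:51470366-51470615 (plus strand, Cbx3) and chr15:103240147-103240396 (plus strand, Hnrnpa1).
Hnrnpf: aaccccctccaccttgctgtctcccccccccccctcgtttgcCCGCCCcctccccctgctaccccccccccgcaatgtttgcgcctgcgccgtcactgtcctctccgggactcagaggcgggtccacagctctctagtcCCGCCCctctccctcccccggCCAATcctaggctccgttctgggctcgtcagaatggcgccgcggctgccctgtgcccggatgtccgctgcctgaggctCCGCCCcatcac
Hnrnpdl: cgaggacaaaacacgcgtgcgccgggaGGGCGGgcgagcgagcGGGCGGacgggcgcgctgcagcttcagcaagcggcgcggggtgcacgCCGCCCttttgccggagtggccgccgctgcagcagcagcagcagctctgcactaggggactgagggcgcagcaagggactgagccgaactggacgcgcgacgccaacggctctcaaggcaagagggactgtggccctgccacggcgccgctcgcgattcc
Cbx3: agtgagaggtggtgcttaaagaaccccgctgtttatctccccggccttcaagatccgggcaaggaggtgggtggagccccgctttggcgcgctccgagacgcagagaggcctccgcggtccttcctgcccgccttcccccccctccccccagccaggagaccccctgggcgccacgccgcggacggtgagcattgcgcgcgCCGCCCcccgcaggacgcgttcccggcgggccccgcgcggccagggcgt
Hnrnpa1: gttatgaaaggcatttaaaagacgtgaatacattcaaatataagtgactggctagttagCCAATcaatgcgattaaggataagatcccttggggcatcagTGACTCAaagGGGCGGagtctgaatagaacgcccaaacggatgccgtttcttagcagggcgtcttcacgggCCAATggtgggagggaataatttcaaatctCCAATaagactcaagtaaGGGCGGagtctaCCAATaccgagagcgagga
In the 300 bases of the promoter, Hnrnpdl had 42 CG and 72.7% G and C, Cbx3 34 CG and 75.3%, and Hnrnpf 24 CG and 69.7%. Hnrnpa1 had 16 CG and 48.3%, with 4 CCAAT matches 191, 79, 49 and 19 bp before the start. The summits of Hnrnpf and Hnrnpdl lay inside these 300 bases. Those of Cbx3 and Hnrnpa1 lay 285 and 313 bp before the start, outside them, although both peaks covered these bases. The Hnrnpa1 summit was closer to a listed start of Cbx5, whose promoter composition was not examined. Its fold therefore cannot be set against the composition of the Hnrnpa1 promoter, and a link between fold and composition was not tested.

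Among the SR genes with a DMSO summit, folds ran from 9.38 to 16.3, with a median of 13.7 against 10.99 for the whole list. Srsf2, the gene of the speckle protein SC35, had the highest fold (16.3, interval 12.7 to 20.7, 66 fragments), followed by Srsf1, a proto-oncogene (15.4, interval 11.8 to 19.6). Srsf4 (14.4), Srsf3 (13.7), whose product also serves mRNA export, Srsf10 (13.7), whose product represses splicing when dephosphorylated, Srsf5 (12.7), Srsf6 (11.7) and Srsf9 (10.3) came next. Srsf7 was lowest (9.38, interval 7.15 to 12.1). The fold intervals of neighbours in this order overlapped throughout, and those of Srsf2 and Srsf7 did not overlap. In fragments, the intervals of Srsf2 (51.0 to 84.0) and Srsf7 (43.2 to 73.9) did overlap. The input coverage was 2.32 at Srsf2 and 4 at Srsf7, and its error is not in the fold intervals. Srsf11 and Srsf12 had no summit in either list. The nearest DMSO summit was 1803 kb from Srsf11 and 14.1 kb from Srsf12. The paralogues Tra2a and Tra2b, whose SR-like products activate exons with GAA-rich enhancers, had folds of 9.29 and 10.7, in the lower part of the members' range.

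Genes of 3′ splice site recognition did not behave alike. U2af2, which encodes the subunit that binds the polypyrimidine tract, had 2 DMSO summits. The stronger (15.4, interval 11.8 to 19.6) lay 906 bp inside its low-coordinate end, and the weaker (9.29, interval 6.63 to 12.7) lay 48 bp outside its high-coordinate end, 144 bp from an end of Epn1, an endocytic adaptor gene. U2af1, which encodes the subunit that contacts the AG, had 1 (13.2). Sf3b1, the gene of the U2 snRNP protein at the branch point, had no summit, and the nearest DMSO summit was 25.1 kb away.

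The highest member fold belonged to a peak that an hnRNP A gene shares with a chromatin gene. Hnrnpa2b1 (chr6:51460434-51470048), an hnRNP that binds exons and RNA sorting signals, and Cbx3 (chr6:51470154-51483704), which encodes the heterochromatin protein HP1γ and is no splicing factor, point away from each other with 105 bp between them. Both were counted for the same DMSO peak (chr6:51467699-51472578), with a fold of 25.3 (interval 20.7 to 30.6, 103 fragments) that ranked 23 of 6444 in the list. Its summit lay inside Cbx3, 177 bp from the gene's end and 283 bp from that of Hnrnpa2b1, so the peak cannot be given to either gene alone. Hnrnpa1 (chr15:103239943-103246698), a splicing silencer gene, is likewise 38 bp from Cbx5, the gene of HP1α. It had a fold of 21.9 (interval 17.7 to 26.9, 89 fragments) with the summit 180 bp from the end of Cbx5. Hnrnpa3 (17.8) and Hnrnpab (16.1) followed, and Hnrnpa0 was lowest of its group (11.7, interval 8.69 to 15.5). None of these 3 had another coding end within 1 kb of its summit. The interval of the highest peak overlapped those of 10 other member peaks and lay above those of 25.

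**Figure D2:**
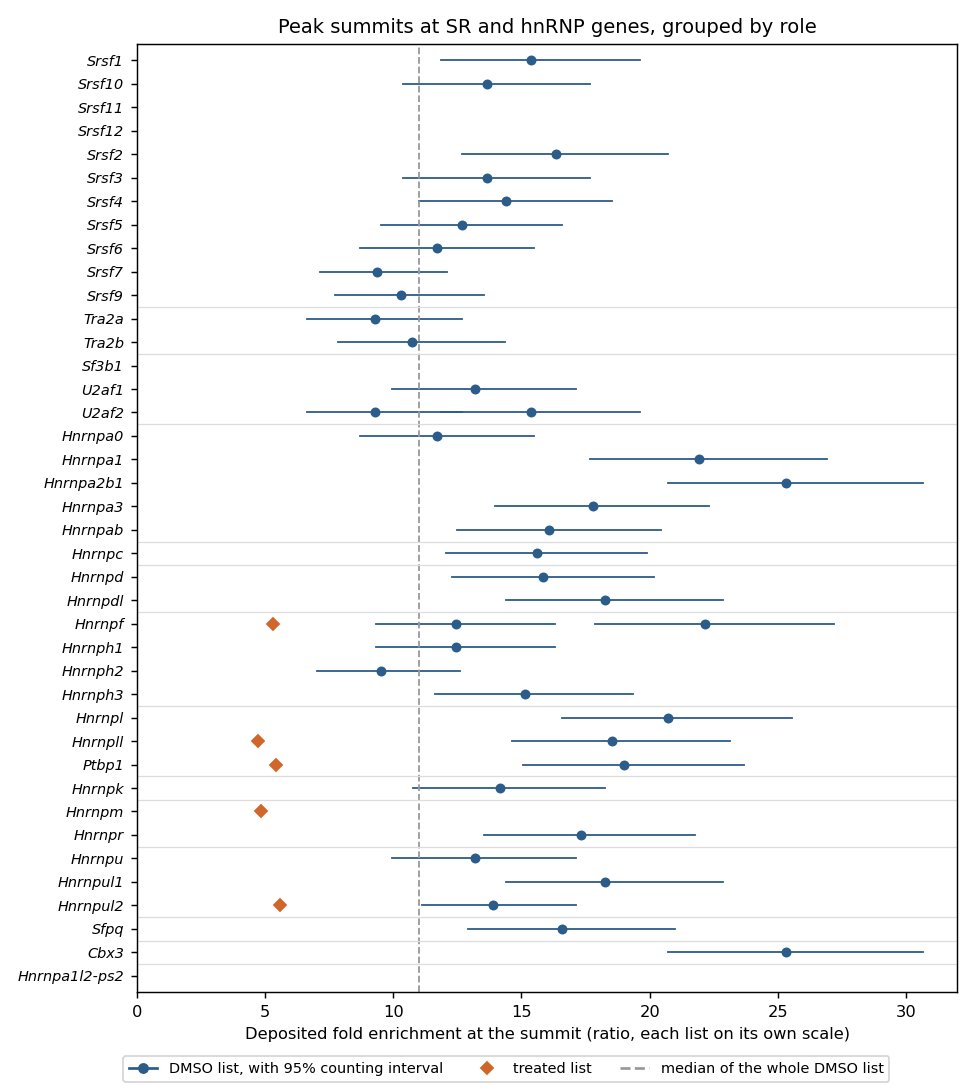
Deposited fold enrichment at the summit (x axis, ratio) for each of the 40 members (rows, grouped by role). Blue points are DMSO summits with the 95% counting interval, orange diamonds are treated summits, which are on the scale of their own list, and the dashed line is the DMSO list's median of 10.99; rows without a point had no summit. Hnrnpa2b1 and Cbx3 show the same peak, and only that peak, those of Hnrnpa1 and Hnrnpl and the stronger peak of Hnrnpf have folds above 20.

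Hnrnpf, whose product binds runs of G near splice sites, had 2 DMSO peaks and a treated peak. The stronger DMSO summit (22.2, interval 17.9 to 27.2, 90 fragments) lay 20 bp past the second of its 4 listed starts, and the weaker (12.4, interval 9.32 to 16.3) lay 230 bp before the fourth. The stronger summit and the treated peak also lay inside 4933440N22Rik, a coding gene on the opposite strand. The stronger DMSO peak covered that whole gene and its listed start, so the peak cannot be given to Hnrnpf alone. The first listed start of Hnrnpf, which is its outer end, had no peak within 1 kb. The other genes of the F and H group were lower. Hnrnph3 had a fold of 15.1, Hnrnph1 of 12.4 and the X-linked Hnrnph2 of 9.51 (interval 7.03 to 12.6), and the interval of Hnrnph2 did not overlap that of the stronger Hnrnpf peak.

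The 3 genes of the hnRNP I and L group all had folds above 18. Hnrnpl, which binds CA repeats, had a fold of 20.7 (interval 16.6 to 25.6) in the widest member peak (5579 bp). Its paralogue Hnrnpll, known for splicing of Ptprc in lymphocytes, had 18.5. Ptbp1, the polypyrimidine tract-binding repressor of neuronal exons, had 19.0 (interval 15.1 to 23.7). The 3 intervals overlapped.

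The other hnRNP genes lay between. Hnrnpd and Hnrnpdl, whose products bind AU-rich elements of mRNA, had folds of 15.8 and 18.3. Hnrnpc, whose product binds U tracts and measures transcript length, had 15.6, and Hnrnpk, a binder of C-rich sequence, 14.1. Hnrnpr had 17.3. Hnrnpul1 had 18.3, Hnrnpul2 13.9 and Hnrnpu, the gene of a nuclear scaffold protein, 13.2. Sfpq, whose product acts in paraspeckles and splicing, had 16.6. Hnrnpm had no DMSO summit, and neither had Hnrnpa1l2-ps2, a copy of 1.17 kb whose symbol marks it as a pseudogene although the table lists it as coding.

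Peaks sat on transcript starts. Starts with strand were listed for 37 members, not for Hnrnpll, Hnrnpul2 and U2af2. Of the 37, 32 had a DMSO summit within 1 kb of a listed start, against 21.4% of 17492 genes with one. In all 32 the peak covered the start, as it did in 98.1% of the other coding genes and 97.1% of the other splicing genes with such a summit. Covering the start was therefore not particular to the members. These are the same members that had any DMSO summit, so none of the 37 had its only summit deep in the body or at the 3′ end, a count not made over all genes. Of the 33 summits at these genes, the farthest before a start was that of Srsf2 (484 bp) and the farthest past it that of Srsf1 (520 bp). The summit nearest the start was before it in 22 of 32 members (68.8%), with a median position of -185.5 bp, and in 65.1% of the 3709 other coding genes with such a summit, with a median of -136 bp. Within 500 bp of the start lay 30 of 32 (93.8%), and 82.2% of the others. Peaks reached a median of 1770 bp before the start and 1813 bp past it. Srsf6 and Srsf9 had the shortest reach past the start, with 354 and 363 bp against 1708 and 1467 bp before it, and Hnrnpu reached 985 bp before its start and 2886 bp past it. Member peaks were wide (median 3684 bp against 2855 bp for the list, 1340 to 5579 bp).

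**Figure D3:**
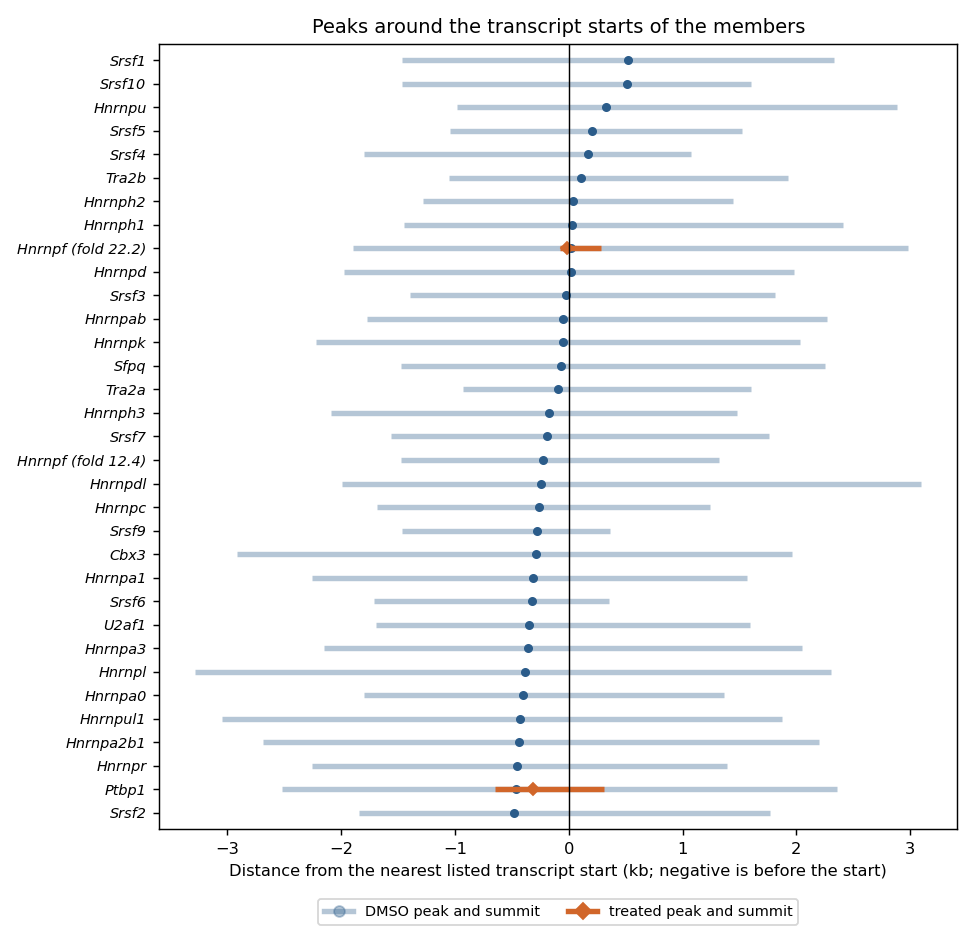
Extent of each DMSO peak (pale blue bar) and its summit (point) around the nearest listed transcript start of the member (x axis, kb, transcription to the right), for the 33 DMSO summits of members with a listed start, sorted by summit position. Orange marks the 2 treated peaks at the same starts, at Hnrnpf and Ptbp1; the bars all cross 0 and the summits lie from 484 bp before it to 520 bp past it.

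Some of these summits lay close to another gene. For 14 of the 35 members an end of another protein-coding gene lay within 1 kb of a DMSO summit, a count not made over all genes with a summit. Besides Cbx3, Cbx5 and Epn1 these were Gemin6 (5 bp, at Srsf7), whose product helps to assemble snRNPs, 4930524J08Rik (15 bp, at Hnrnpd), Pbld2 (27 bp, at Hnrnph3), Rpgrip1 (41 bp, at Hnrnpc), Rmi1 (82 bp, at Hnrnpk), a gene of the complex that dissolves Holliday junctions, Gla (212 bp, at Hnrnph2), 4933407O12Rik (285 bp, at Hnrnpll), Ttc9c (383 bp, at Hnrnpul2), Enoph1 (438 bp, at Hnrnpdl) and 4933440N22Rik (996 bp, at Hnrnpf). Of the 32 members with a summit at a listed start, 11 (34.4%) had such a neighbour, against 28.3% of the other coding genes. In the other splicing genes with such a summit the share was 32.4%, so a close neighbour was not particular to the members. With each summit given to the gene of the nearest end alone, 27 members kept one, against 20.2% of protein-coding genes. The peaks counted at such shared ends cannot be given to 1 gene alone.

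Across the 37 member promoters, and on both strands, 7 motifs were searched. Of these, 2 were more frequent in the members than over all coding promoters by more than 20 percentage points, a limit not set in advance. As for the CG counts, the sides were not chosen alike: the member promoters were those nearest the strongest DMSO summit where there was one. Promoters of like CG number were not compared. GGGCGG was in 30 of 37 member promoters (81.1%, against 46.2%) and CCAAT in 22 (59.5%, against 38.2%). TATAAA, the TATA box, was in 5 (13.5%, against 12.6%) and CCGGAAG, an ETS site, in 5 (13.5%, against 11.6%). TGACGTCA, a CREB site, was in that of Tra2a alone (against 2.23%), TGAGTCA in that of Hnrnpa1 alone (against 4.66%), and CGCATGCG, the core of an NRF1 site, in those of Hnrnph1 and Srsf7 (against 2.52%). No motif of this list contains another, a match is only a match of letters, and GGGCGG itself holds a CG, which the members' promoters have in larger number.

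The 5 treated peaks at members were 172 to 954 bp wide, around the treated list's median of 454 bp. They had folds from 4.73 to 5.57, around that list's median of 5.19. At Hnrnpf (chr6:117906706-117907065, fold 5.30, −log10 q 5.70) the summit lay 16 bp before the second listed start and 36 bp from the DMSO summit. In Hnrnpul2 (chr19:8819539-8819710, fold 5.57, −log10 q 5.20) it lay 216 bp inside the low-coordinate end and 119 bp from the DMSO summit. Before Ptbp1 (chr10:79853785-79854738, fold 5.43, −log10 q 4.44) it lay 313 bp from the start and 146 bp from the DMSO summit. Outside the high-coordinate end of Hnrnpll (chr17:80062715-80062945, fold 4.73, −log10 q 3.66) it lay 845 bp from the DMSO summit, which is on the other side of that end. These 4 treated peaks lay wholly inside the DMSO peak of the same gene.

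Hnrnpm, whose product binds GU-rich RNA and is known from epithelial-mesenchymal splicing switches, differed from these. Its treated peak (chr17:33662638-33663228, fold 4.86, −log10 q 5.77) had its summit 22409 bp past the listed start, inside the gene, 16816 bp from the other end. The nearest DMSO summit was 17.4 kb away from the gene. No site with a −log10 q as low as 5.77 could be in the DMSO list, whose lowest was 18.5. The lack of a DMSO peak there therefore does not show that ends were absent. The 4 members with both peaks had DMSO folds of 13.9, 18.5, 19.0 and 22.2 (that of the stronger peak for Hnrnpf). The other members with a DMSO fold above 20, Hnrnpa2b1 with Cbx3 (25.3), Hnrnpa1 (21.9) and Hnrnpl (20.7), had no treated summit.

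**Figure D4:**
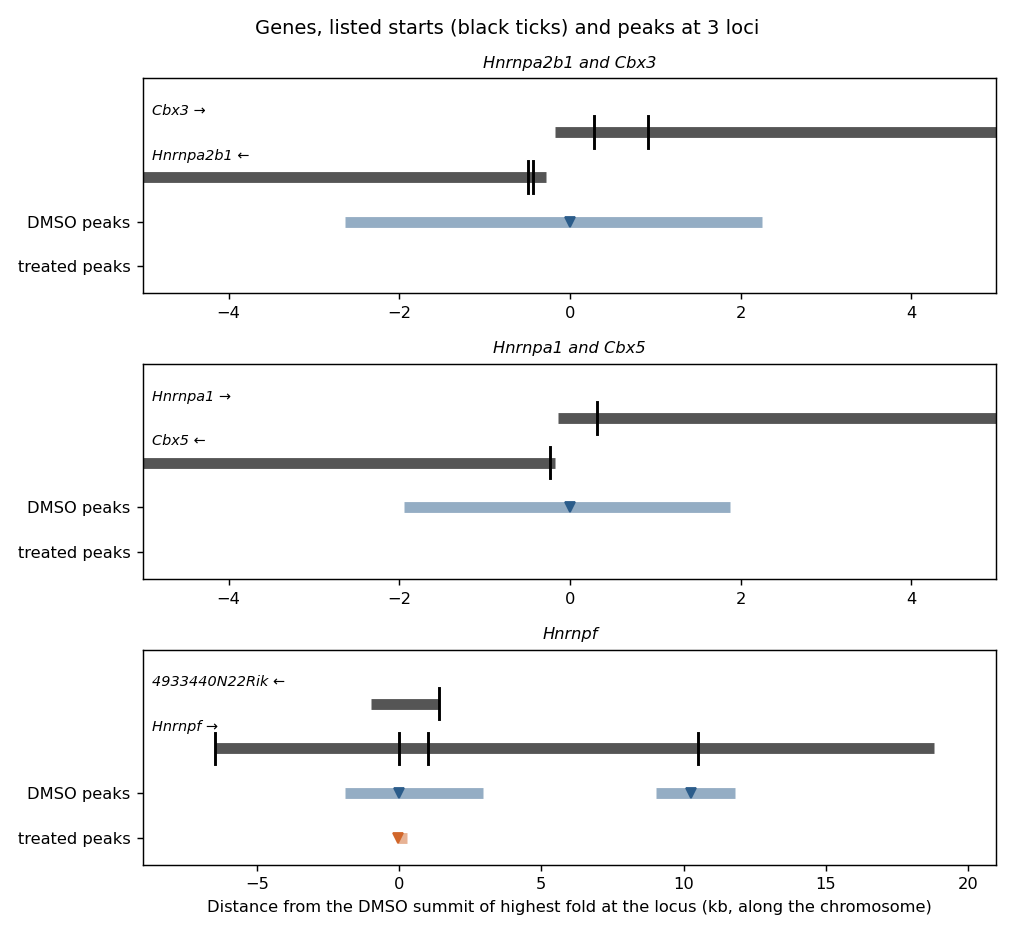
Genes (grey bars, arrows give the strand), listed transcript starts (black ticks) and peaks (bars, with a triangle at the summit) at 3 loci, against distance along the chromosome from the DMSO summit of highest fold (kb). One DMSO peak spans the ends of both divergent genes at the Hnrnpa2b1 and Cbx3 locus and at the Hnrnpa1 and Cbx5 locus, where no treated peak lies, and at Hnrnpf the treated peak lies within the stronger of 2 DMSO peaks.

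Other genes of splicing, a list of 83 written from textbook membership, had a DMSO summit at 46 genes (55.4%), a share between those of the members (87.5%) and all coding genes (23.8%), and these differences were not tested. They were not alike. A group of SR kinases and SR-related proteins had one at 16 of 21 genes (76.2%). This group also holds Ddx5, Ddx17 and Sf1, which are neither, and each of these had a DMSO summit. Other RNA-binding regulators had one at 22 of 34 genes (64.7%) and snRNP proteins, the core of the spliceosome, at 8 of 28 (28.6%), which is near the share of all genes. The highest folds were at Sf1, the branch point-binding protein gene (22.9), Luc7l2 of the U1 snRNP (22.4), Raly, an hnRNP-like gene (22.2), Ddx5, an RNA helicase gene (20.5, beside Cep95), Rnps1 of the exon junction complex (19.98, with 3 summits), and Khdrbs1, the Sam68 gene, and Srrm2, a speckle scaffold gene (18.0 each). Treated summits lay at 4 of the 83 (4.82%, against 1.16%). Those at Sf1 (fold 5.96), Raly (5.54) and Ddx5 (5.03) lay 99, 500 and 53 bp before a listed start, and their DMSO peaks met a treated peak. That at Tia1, a gene of a U-rich binding splicing activator (6.11), lay 4609 bp past the start, and no DMSO peak of that gene met it.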

How the data were processed

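Samples were grouped by their titles. The submitters' processing notes list MACS2 2.1.0, Picard 1.141, SAMtools 0.1.19, STAR 2.5.2a and bcl2fastq 2.17.1.14, and the build mm10. Roles, settings and how peaks were admitted are not given in the sources used here. Per the names of the peaks, the pooled pull-downs were compared with the pooled input. The deposited columns are the authors' fold enrichment (a ratio), −log10 p, −log10 q, the summit offset and a score, which is the whole part of 10 times −log10 p and was not used. Positions of a gene table and starts and strand of a promoter table (RefSeq, GRCm38.p6) were joined to summits, and the table gives no exons. All 40 members and 83 other splicing genes were found, and 37 and 68 had a listed start.

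Fold is (coverage + 1)/(background + 1) and p a Poisson tail, which were inverted per peak. A solution was taken where coverage was within 0.02 of a whole multiple of 1 fragment's weight. This held for all of the 500 DMSO and 491 treated peaks tried, and all of 100 simulated peaks per list were solved rightly. The weight was fitted to these same peaks, and the simulated peaks were made with the same formulas and weight. Both therefore check the inversion, not the formulas. The 37 pairs of member and DMSO summit were all solved, 1 solution each. Files give no read totals.

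Named in the text were all members, the members of the 8 highest DMSO folds (ties kept) and all with a treated summit in full, and of the other splicing genes those with a treated summit and the 6 highest DMSO folds (ties kept). Members and lists were chosen with earlier results of these data known. No test was run. Alternatives changed the flank, the point of the peak, the peaks used, shared ends and Cbx3. Versions were matplotlib 3.10.9, pandas 2.3.3, SciPy 1.17.1, NumPy 2.4.6 and Python 3.11.15.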

Additional observations from a re-analysis of the deposited data

How the results depend on the processing

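Of 70 recomputed values, 62 stayed within 1.5 times the reported count or, for the median fold, within its 95% order-statistic interval (13.2 to 16.3), and 8 did not. With gene bodies alone, members with a DMSO summit were 23 (13.2% of all coding genes), members with a treated summit 3 (0.758%), other splicing genes with a DMSO summit 24 and with a treated summit 2, as summits just outside a start were then not counted. Among peaks at or above their list's median fold, and also at −log10 q of at least 5, 3 members had a treated summit (0.649% and 0.539% of coding genes). The DMSO peak of 2 members met a treated peak at −log10 q of at least 5, and likewise of 2 with nearest ends alone. In the other settings, members with a DMSO summit were 27 to 35. Taking the outer gene end as the start, an alternative chosen after seeing the data, left 25 members with a summit at the start (19.5% of coding genes with a listed start). No paired analysis was possible because each list pools its samples, and for the same reason no replicate could be left out. The count of 5 treated members is small, and 2 of the 5 treated peaks had a −log10 q under 5.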

Other observations

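The order of the members depends on whether peaks are ranked by fold or by pull-down fragments, since the background term of the fold (the input coverage the peak caller set it against) differed at 4 of the 36 distinct DMSO peaks. The background term was at the list's genome background, a coverage of 2.32, for the other 32. It is on the peak caller's scale, where 1 pull-down fragment of the DMSO list weighs 0.805. Hnrnpul2 had 85 fragments at its summit, 1 more than Hnrnpl (84), but a background term of 4 and a fold of 13.9 against 20.7. Srsf7 had 57 fragments, as many as Hnrnpk, with a background term of 4 and a fold of 9.38 against 14.1. Srsf9 (50 fragments, as many as Hnrnph1) and Hnrnph2 (46 fragments) had a background term of 3. By fragments, Srsf7 is the fourth of the 9 Srsf genes with a summit, and by fold the lowest.

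The 2 genes of highest DMSO fold in the hnRNP A and B group each lie beside an HP1 gene, Cbx3 at Hnrnpa2b1 and Cbx5 at Hnrnpa1, with 105 and 38 bp between the paired genes. This was noticed after the values were seen, and 2 loci allow no test.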
